A study of Mus musculus with 4 samples.

Results

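The glucocorticoid and stress axis genes examined here are Nr3c1, Nr3c2, Fkbp5, Tsc22d3, Sgk1, Hsd11b1, Crhr1, Crhr2 and Crhbp. They were taken by name, as the corticosteroid receptors, 3 classical glucocorticoid target genes, the enzyme that renews active glucocorticoid inside cells, and the receptors and binding protein of corticotropin-releasing hormone (CRH). All 9 of the 9 genes were on the array, each with 1 probe set naming it alone, out of 35556 probe sets in all. Whole-brain RNA of C57BL/6J males was hybridized to 4 Affymetrix Mouse Gene 1.0 ST arrays. In the ethanol group, pups were given ethanol under the skin in 2 doses of 2.5 g/kg with 2 hours between, on postnatal days 4 and 7, as a 20% solution in saline. Pups of the control group were given saline on the same schedule. Brains were collected at postnatal day 60 by the sample labels, after weaning at day 25, and the study's methods give other days for both. Each array held RNA of 3 males from different litters, pooled in equal amounts, so that a difference between arrays of 1 group is a difference between pools.

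The arrays are called ethanol 2, ethanol 4, control 1 and control 3, after their titles. For ethanol 4 and control 1, the treatment entry of the labels names the opposite group to the title and the source name. Both were kept in the group of their title and source name. The deposited values are log2 signals that the authors had normalized, but the median over all probe sets was 6.33 on ethanol 2 and 6.38 on ethanol 4, against 6.61 on control 1 and 6.51 on control 3. With this shift, 80.2% of all probe sets had a lower mean in the ethanol group, with a median difference of -0.15 on the log2 scale. For this reason the differences of the members are given on the deposited values and on values whose quantiles were made equal across the 4 arrays. The median difference over all probe sets was -0.0042 after this quantile normalization. The deposited values of the arrays correlated across probe sets with r of 0.992 between the ethanol arrays, 0.989 between the control arrays and 0.982 to 0.987 between groups.

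Glucocorticoids are the end product of a hormone chain. CRH from the hypothalamus acts through its receptor Crhr1 on the pituitary, which cleaves adrenocorticotropin from the product of Pomc, and adrenocorticotropin makes the adrenal cortex release corticosterone in mice. Inside the brain, corticosterone binds the mineralocorticoid receptor (Nr3c2), which has high affinity and is rich in the hippocampus, and the glucocorticoid receptor (Nr3c1), which has lower affinity and is found in most cells. The bound receptors enter the nucleus, bind DNA and change the transcription of target genes, among them Fkbp5, Tsc22d3 and Sgk1.

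The receptors bind as a pair to 2 copies of a short hexamer that face each other across a gap of 3 bases, and windows around the start sites of 2 target genes are shown because they hold such letters. The windows are from RefSeq on GRCm38.p6, run 5′ to 3′ from 250 bases before a transcript start to 50 bases after it, and are in lower case. In Tsc22d3 the capitals mark the hexamer (AGAACA, or TGTTCT on the other strand), 185 to 180 bases before the start, in the window chrX:140600473-140600772 on the minus strand. In Sgk1 they mark the full site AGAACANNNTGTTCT, 189 to 175 bases before the start, in the window chr10:21993640-21993939 on the plus strand, and a further hexamer in that window is left in lower case.
Tsc22d3: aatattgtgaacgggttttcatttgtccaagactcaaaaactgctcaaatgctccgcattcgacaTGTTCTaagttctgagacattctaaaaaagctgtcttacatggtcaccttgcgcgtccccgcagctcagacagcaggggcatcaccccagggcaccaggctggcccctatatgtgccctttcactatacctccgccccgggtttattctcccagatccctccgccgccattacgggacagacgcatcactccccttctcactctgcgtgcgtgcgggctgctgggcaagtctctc
Sgk1: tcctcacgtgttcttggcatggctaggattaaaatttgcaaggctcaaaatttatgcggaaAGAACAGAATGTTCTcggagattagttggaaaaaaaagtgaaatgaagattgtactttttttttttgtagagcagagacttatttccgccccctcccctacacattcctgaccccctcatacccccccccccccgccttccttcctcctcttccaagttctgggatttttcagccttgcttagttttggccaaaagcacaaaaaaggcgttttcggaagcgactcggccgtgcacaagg
Of the 9 genes, 8 were matched to 15 such windows, and 4 of the 15 windows, all of Tsc22d3 or Sgk1, held the hexamer on either strand. Over all 32851 windows of the mouse table, 19% held the hexamer, and 3 windows held the full site, which is the same letters on both strands and contains the hexamer. The windows of Nr3c2, Fkbp5, Hsd11b1, Crhr1, Crhr2 and Crhbp held neither. These are matches of letters, and no binding was measured.

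Tsc22d3 and Sgk1 were the 2 members past limits of 1.2-fold and an unadjusted p of 0.05, and both were lower in ethanol-exposed brains. The limits are those of the study, applied here to the p of limma's moderated test. No member was higher past those limits, and the other 7 were past them in neither direction. Among all 35556 probe sets, 17.9% were lower, 2.23% were higher and 20.1% were either by the same limits, so that the count of 2 among 9 stands near the background. With limma's moderated test and Benjamini-Hochberg adjustment over all probe sets, the smallest adjusted p among the members was 0.175, and 1 probe set of the whole array, 0.00281%, had an adjusted p under 0.05. At an unadjusted p under 0.05 there were 2 members, beside 22.2% of all probe sets. After quantile normalization neither Tsc22d3 nor Sgk1 was past the limits, and Crhr2 was, as the single member that was higher. The background was then 5.87% lower, 5.71% higher and 11.6% either, and 0.00562% of all probe sets, but no member, had an adjusted p under 0.05 by limma. With the test of the study's methods 14.9% of all probe sets, Tsc22d3 and Sgk1 among them, had an unadjusted p under 0.05. No member had an adjusted p under 0.05. With that test and the fold limit, 2 members were lower and 0 higher, beside 2882 of all 35556 probe sets lower and 272 higher.

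Tsc22d3 encodes GILZ, a leucine zipper protein that glucocorticoids induce and that restrains inflammatory signalling. Its log2 signal was 8.13 on ethanol 2 and 8.08 on ethanol 4, against 8.42 on control 1 and 8.44 on control 3. Both ethanol arrays were below both control arrays, and the arrays of each group lay close together. The difference was -0.32 ± 0.08 on the log2 scale (limma's moderated SE, 2 arrays per group), a fold of 0.798. It had a 95% interval of -0.55 to -0.10, an unadjusted p of 0.0137 and an adjusted p of 0.175 by limma. Every SE and interval given here is moderated, so it draws on the spread of all probe sets as well as the gene's own. After quantile normalization the groups still did not overlap, and the difference was -0.19 with an interval of -0.41 to 0.04 and a limma adjusted p of 0.415. The 1995 probe sets of like mean signal, within 0.25 on the log2 scale, had a median difference of -0.16 as deposited. It was -0.03 after quantile normalization. With ethanol 4 or control 3 left out, the difference of Tsc22d3 was -0.30 and -0.31 on the log2 scale. Such a fit has 1 array in a group, so only the size of its difference is given.

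Sgk1 encodes a kinase that acts on ion channels and transporters and is induced by both corticosteroid receptors. It had log2 signals of 8.67 on ethanol 2 and 8.63 on ethanol 4, against 8.92 on control 1 and 8.93 on control 3. Again both ethanol arrays were below both control arrays, and the control arrays were nearly equal. The difference of Sgk1 was -0.28 ± 0.08 (SE) on the log2 scale, a fold of 0.825, with a 95% interval of -0.50 to -0.06, an unadjusted p of 0.0230 and an adjusted p of 0.187 in the limma fit. After quantile normalization it was at -0.15, the interval was -0.36 to 0.07 and the limma adjusted p was 0.472. The 1870 probe sets with a mean signal like that of Sgk1 had a median difference of -0.15 as deposited and -0.02 after quantile normalization. With any 1 of the 4 arrays left out, the difference of Sgk1 stayed between -0.30 and -0.26.

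Fkbp5 encodes a co-chaperone that lowers the affinity of the glucocorticoid receptor for its hormone and is itself induced by glucocorticoids. Its log2 signal was 6.20 on ethanol 2 and 6.00 on ethanol 4, against 6.31 on control 1 and 6.50 on control 3. The groups did not overlap, but ethanol 2 and control 1 were closer to each other than the arrays within either group. The difference was -0.31 ± 0.12 (SE) with a 95% interval of -0.63 to 0.02 and a limma adjusted p of 0.240, larger than that of Sgk1 but with a wider spread. Without ethanol 2 it was -0.41 and without ethanol 4 it was -0.20. Quantile normalization made the groups overlap and gave -0.10 with an interval of -0.50 to 0.30. Fkbp5 was also dim. On the 4 arrays it was above 91.2% to 97.1% of 1245 probe sets for olfactory, vomeronasal and taste receptors, genes with little or no expected expression in brain.

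**Figure D1:**
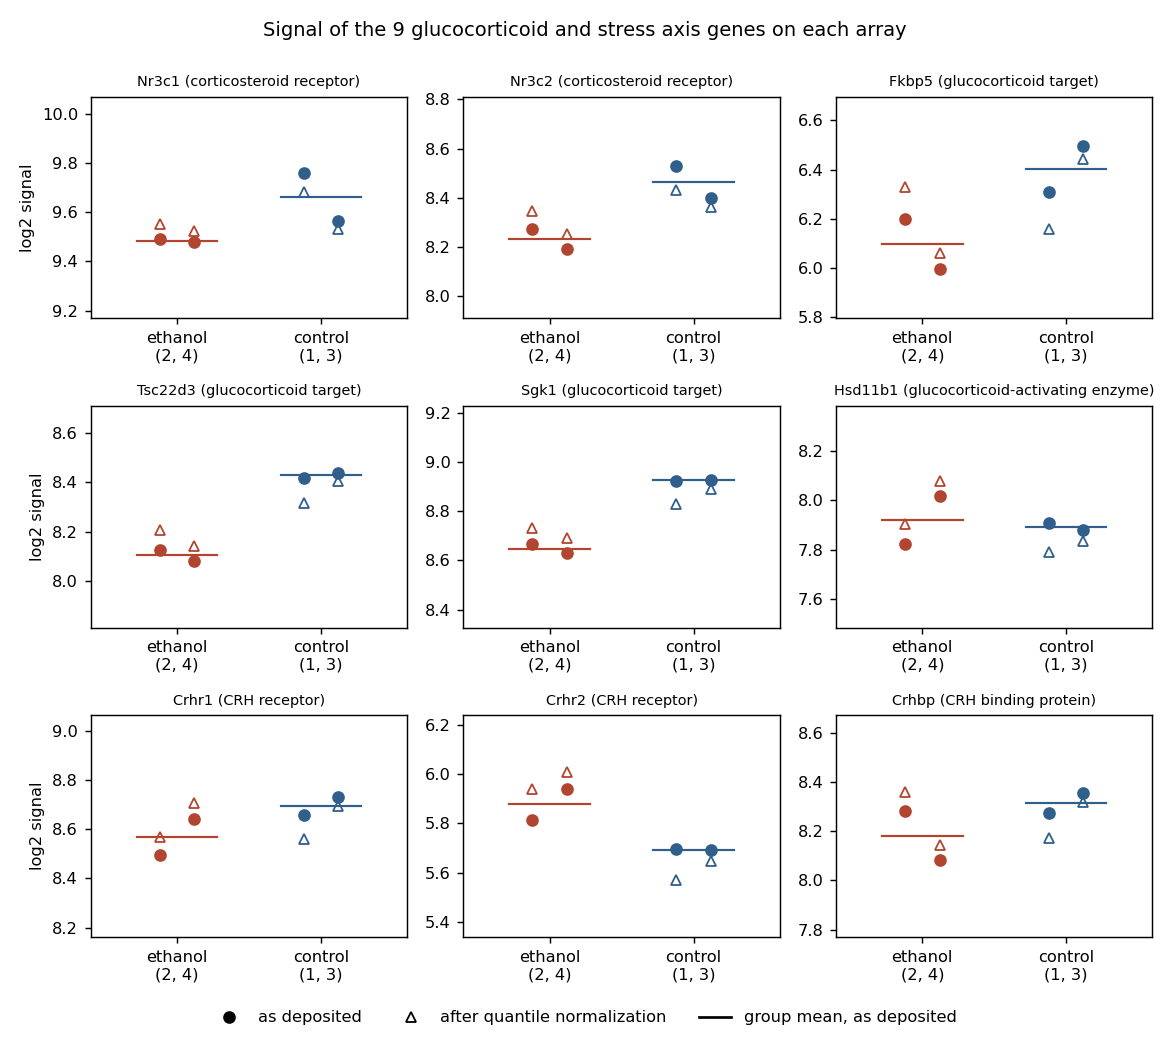
Log2 signal of each of the 9 genes on the ethanol arrays (left in each panel, ethanol 2 then ethanol 4) and the control arrays (right, control 1 then control 3), as deposited (filled circles) and after quantile normalization (open triangles), with group means of the deposited values as lines. Every panel spans the same range of log2 signal. The deposited points of Tsc22d3 and Sgk1 lie apart with little spread inside a group, and the triangles stand closer together between groups.

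Neither corticosteroid receptor was past the limits. Nr3c1 had log2 signals of 9.49 on ethanol 2 and 9.48 on ethanol 4, against 9.76 on control 1 and 9.56 on control 3. The ethanol arrays were lower than both control arrays, and control 1 stood above control 3 by more than control 3 stood above the ethanol arrays. The difference was -0.18 ± 0.10 (SE), with a 95% interval of -0.45 to 0.10 and an adjusted p of 0.353 by limma. With 1 array left out it ran from -0.28, without control 3, to -0.08, without control 1. After quantile normalization the groups overlapped and the difference was -0.07, with an interval of -0.31 to 0.18. For comparison, the 1522 probe sets with a mean signal like that of Nr3c1, within 0.25 on the log2 scale, had a median difference of -0.14 as deposited and -0.03 after quantile normalization.

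Nr3c2 was at 8.27 on ethanol 2 and 8.19 on ethanol 4, against 8.53 on control 1 and 8.40 on control 3. The groups did not overlap, before or after quantile normalization. Its difference of -0.23 ± 0.10 (SE) had a 95% interval of -0.49 to 0.02, an unadjusted p of 0.0657 and an adjusted p of 0.248 by limma, and it was -0.10 with an interval of -0.33 to 0.13 after quantile normalization. The 2 receptors and the 3 target genes were also compared within each array, where a shift equal for all genes cancels. The shift was not quite equal. As deposited, probe sets with a signal like that of Nr3c1 had a median difference of -0.14, and like that of Fkbp5 of -0.18. With each gene centred on its own mean over the 4 arrays, the targets minus the receptors gave -0.0240 on ethanol 2 and -0.0741 on ethanol 4, against -0.0682 on control 1 and 0.166 on control 3. These groups overlapped, since control 1 lay with the ethanol arrays.

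Hsd11b1 encodes the enzyme that turns the inert keto form of corticosterone back into the active hormone within cells. Its log2 signal was 7.82 on ethanol 2 and 8.02 on ethanol 4, against 7.91 on control 1 and 7.88 on control 3. Ethanol 2 was the lowest and ethanol 4 the highest of the arrays, with both control arrays between them. The difference was 0.03 ± 0.10 (SE) with a 95% interval of -0.25 to 0.30 and an adjusted p of 0.888 by limma, and 0.18 with an interval of -0.08 to 0.44 after quantile normalization. A value 1.2-fold higher, 0.26 on the log2 scale, lies within both intervals of Hsd11b1, and a value 1.2-fold lower lies outside both. Without ethanol 4 the difference was -0.07, and without ethanol 2 it was 0.12.

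Crhr1 and Crhr2 are the membrane receptors of CRH and the related urocortins, and Crhr2 binds urocortins more strongly than CRH. Crhr1 was at 8.49 on ethanol 2 and 8.64 on ethanol 4, against 8.66 on control 1 and 8.73 on control 3. Ethanol 2 was the lowest, and ethanol 4 and control 1 were almost equal. The difference was -0.13 ± 0.10 (SE) with a 95% interval of -0.38 to 0.13 and a limma adjusted p of 0.459. Without ethanol 2 it was -0.05 and without ethanol 4 it was -0.20, and after quantile normalization the groups overlapped at 0.01 with an interval of -0.25 to 0.28.

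Crhr2 was the one member whose ethanol arrays were both above both control arrays. Its log2 signal was 5.81 on ethanol 2 and 5.94 on ethanol 4, against 5.69 on control 1 and 5.69 on control 3. The difference of 0.18 ± 0.09 (SE), 1.14-fold, was not past the limits, with a 95% interval of -0.06 to 0.43, an unadjusted p of 0.107 and an adjusted p of 0.297 by limma. It was 0.12 without ethanol 4 and 0.25 without ethanol 2. After quantile normalization Crhr2 was at 5.94 on ethanol 2 and 6.01 on ethanol 4, against 5.57 on control 1 and 5.65 on control 3. There it was past the limits, at 0.37 or 1.29-fold with an interval of 0.14 to 0.59 and an unadjusted p of 0.00911, where 5.71% of all probe sets were higher by the limits, and its adjusted p was 0.269 by limma. Crhr2 was dim on every array. It was above 92.4% of the 1245 sensory receptor probe sets on ethanol 2 and 90.0% on ethanol 4, against 70.5% on control 1 and 76.3% on control 3, so its signal lay inside their range. These sensory receptor probe sets were past the limits and higher in 0% of cases as deposited and in 2.49% after quantile normalization. They were lower in 15.9% as deposited, beside 17.9% of all probe sets, and in 3.29% after quantile normalization, beside 5.87%. Their median difference was -0.17 as deposited. Within each array, Crhr2 minus Crhr1, each centred on its own mean, was 0.165 on ethanol 2 and 0.145 on ethanol 4. It was -0.118 on control 1 and -0.192 on control 3, and these groups did not overlap. How often other pairs of genes separate in this way was not counted, so this order is a description.

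Crhbp encodes a secreted protein that binds CRH and urocortin and keeps them from their receptors. It had log2 signals of 8.28 on ethanol 2 and 8.08 on ethanol 4, against 8.27 on control 1 and 8.36 on control 3. Ethanol 4 was the lowest array and ethanol 2 lay among the control arrays. The difference was -0.13 ± 0.11 (SE), with a 95% interval of -0.42 to 0.16 and an adjusted p of 0.482 by limma, and 0.01 with an interval of -0.30 to 0.31 after quantile normalization. Without ethanol 2, the difference of Crhbp was -0.23 as deposited, and without ethanol 4 it was -0.03.

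**Figure D2:**
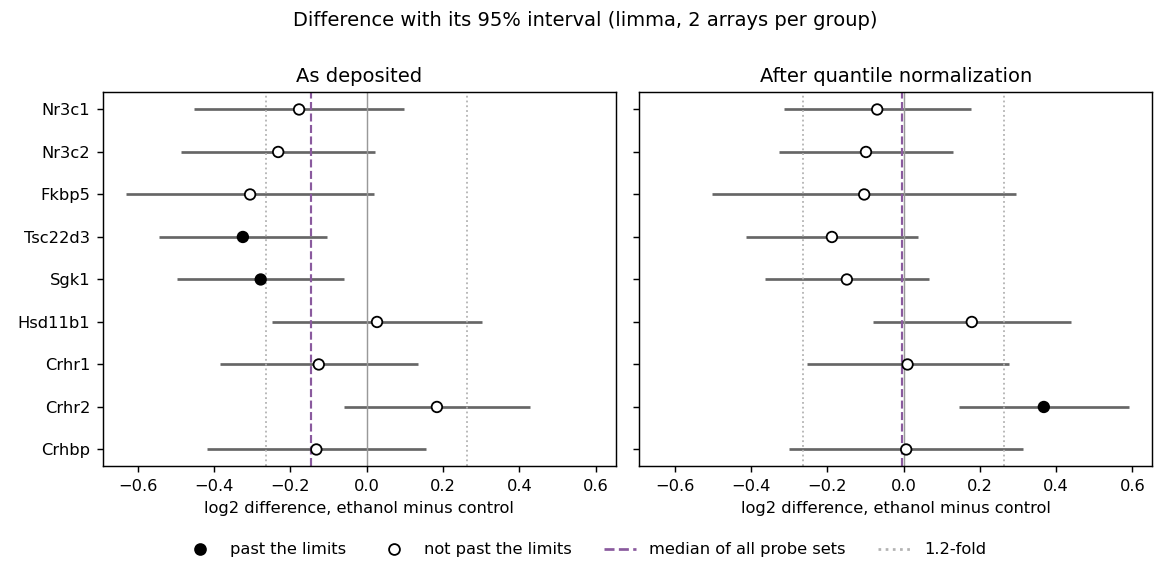
Difference between the ethanol and the control group for each of the 9 genes on the log2 scale, with its 95% interval from limma, as deposited (left) and after quantile normalization (right). Filled points are past the study's limits. As deposited these are Tsc22d3 at -0.32 and Sgk1 at -0.28, and after quantile normalization Crhr2 at 0.37. The dashed line is the median of all 35556 probe sets, -0.15 as deposited.

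As a list, the 9 genes lay near the array as a whole. Their median difference was -0.18, against -0.15 for all probe sets, and 7 of the 9 differences were below 0, where 80.2% of all probe sets were. In 6 of the 9 genes both ethanol arrays were below both control arrays, beside 52.7% of all probe sets, and in 1 both were above, beside 7.25%. The 6 were Nr3c1, Nr3c2, Fkbp5, Tsc22d3, Sgk1 and Crhr1. After quantile normalization the median was -0.07, against -0.0042 for all probe sets, and 5 of the 9 differences were below 0, beside 51% of all. Nr3c2, Tsc22d3 and Sgk1 then still had both ethanol arrays lower (background 24.9%), and Hsd11b1 and Crhr2 had both higher (background 24%).

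Other probe sets had profiles over the 4 arrays like those of the members. Likeness was measured over the 4 arrays as the root mean square difference of log2 signals after each probe set's own mean was taken off, among 10395 or 10396 single-gene probe sets with a mean log2 of 7 or more. Nearest to Tsc22d3 were Atg4b, 1500009C09Rik and Rpl19, and 560 probe sets lay within 0.05 of it. Nearest to Sgk1 were Ttc21b, Rbbp5 and Prrc1, with 856 within 0.05. Fkbp5, whose arrays differed within both groups, had 74 within that distance, led by Ppp1r12b, Dpp7 and Polr3b. Crhr2 had 97, led by Lemd2, Fxyd5 and Rab14. Fkbp5 and Crhr2 themselves had a mean log2 below 7, so no probe set of their own signal level was among the candidates. The nearest profile was that of Qpct for Nr3c1, St13 for Nr3c2, Pcdh10 for Hsd11b1, Ednrb for Crhr1 and Rps25 for Crhbp. With 4 arrays these likenesses are descriptions, and no test was made.

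Other genes that glucocorticoids induce were measured by 19 probe sets, of which 3 were lower, 1 was higher and 15 were past the limits in neither direction, beside 17.9% lower, 2.23% higher and 20.1% either among all probe sets. Their median difference was -0.14 as deposited and -0.04 after quantile normalization. Arrdc2, an arrestin domain gene whose signal lay within the range of the sensory receptor probe sets, was lower, at -0.37 ± 0.09 (SE, adjusted p = 0.173 by limma), and so was Zbtb16, a zinc finger transcription factor, at -0.26 (adjusted p = 0.218 by limma). Per1, a component of the circadian clock that also has a glucocorticoid response element, was at 9.55 on ethanol 2 and 9.58 on ethanol 4, against 9.87 on control 1 and 9.88 on control 3. That is a difference of -0.31 ± 0.08 (SE, adjusted p = 0.177 by limma), close to that of Tsc22d3. Klf9, a Krüppel-like transcription factor, was higher, at 10.39 on ethanol 2 and 10.27 on ethanol 4, against 9.95 on control 1 and 10.12 on control 3 (0.29 ± 0.11, SE, adjusted p = 0.220 by limma). After quantile normalization none of the 19 was lower by the limits. Klf9, at 0.37, and Pdk4, a kinase that curbs glucose oxidation, at 0.45, were higher. Among all probe sets, 5.87% were then lower and 5.71% higher by the limits. Of the 18 genes of this list with a promoter window, 1 held the hexamer and 0 held the full site, beside 21.3% and 0.0111% of all 27025 genes.

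Among the peptides upstream of the steroid and their receptors, 2 of 14 were lower and none was higher, beside 17.9% and 2.23% of all probe sets. Pomc was at 5.48 on ethanol 2 and 5.50 on ethanol 4, against 5.95 on control 1 and 6.09 on control 3, a difference of -0.53 ± 0.09 (SE, adjusted p = 0.165 by limma) that was -0.35 and still past the limits after quantile normalization. These signals of Pomc lay within the range of the sensory receptor probe sets, whose 95th percentile was 6.01 on ethanol 2 and 6.29 on ethanol 4, against 6.36 on control 1 and 6.29 on control 3. Adcyap1, the peptide PACAP, was lower, at -0.27 (adjusted p = 0.199 by limma) as deposited only. After quantile normalization 1 of the 14 was lower and 0 were higher, beside 5.87% and 5.71% of all probe sets. Oxt, the oxytocin precursor, at -0.27 with an unadjusted p of 0.0522 in the limma fit, and Crh, at -0.09 ± 0.12 (SE), were not past the limits, and after quantile normalization they were at -0.11 and 0.12. The pituitary makes most Pomc, and transcripts of other pituitary hormones were low on ethanol 2. Growth hormone, Gh, was at 6.53 on ethanol 2 and 12.26 on ethanol 4, against 12.24 on control 1 and 12.19 on control 3, and Prl and Cga were low on ethanol 2 in the same way. Pomc was at the same level on both ethanol arrays. The part of the pituitary in the difference of Pomc and in the other differences was not tested.

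No gene of steroid synthesis, inactivation and transport was past the limits as deposited, among 13 measured. The 3 with the smallest p were Abcb1a, Cyp11a1 and Cyp11b1. Abcb1a, the drug efflux pump of the blood-brain barrier, was at 0.31 ± 0.14 (SE, adjusted p = 0.272 by limma). The steroidogenic enzymes Cyp11a1 and Cyp11b1 were at -0.20 and -0.23. The signal of Cyp11b1 was below the median of the sensory receptor probe sets on every array, and that of Cyp11a1 was near that median. Quantile normalization put Abcb1a at 0.49 and Hsd11b2, which inactivates corticosterone, at 0.30 past the limits, and the signal of Hsd11b2 was below the median of the sensory receptor probe sets on every array. Of 13 chaperones and cofactors of the receptors, 1 was lower, the heat shock protein gene Hspa1a at -0.38 ± 0.11 (SE, adjusted p = 0.185 by limma). Bag1 at -0.26 and the coactivator Ncoa3 at -0.25 were under the fold limit. After quantile normalization none of these was lower, and Ep300, a histone acetyltransferase, was higher at 0.27. By the limits, 17.9% of all probe sets were lower and 2.23% higher as deposited, and 5.87% and 5.71% after quantile normalization.

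Immediate early genes are induced within minutes by neuronal activity and stress. The 10 measured had a median difference of 0.06, beside -0.15 for all probe sets. After quantile normalization it was 0.23, beside -0.0042. Their mean log2 signal was 7.39 on ethanol 2 and 7.22 on ethanol 4, against 7.14 on control 1 and 7.37 on control 3. These groups overlapped, and they also did after quantile normalization. Jun was lower, at -0.40 ± 0.11 (SE, adjusted p = 0.175 by limma), and was at -0.28 and still past the limits after quantile normalization. Npas4 was at 7.65 on ethanol 2 and 7.41 on ethanol 4, against 6.88 on control 1 and 7.31 on control 3, and its difference of 0.43 was past the limits only after quantile normalization, at 0.61, together with Ier2 at 0.30, whose signal was below the median of the sensory receptor probe sets on every array. Egr2 at 0.48 ± 0.28 (SE) was not past the limits. Among all probe sets, 17.9% were lower and 2.23% higher by the limits as deposited, and 5.87% and 5.71% after quantile normalization. In none of these 5 lists did a gene reach an adjusted p under 0.05 in the limma fit. At an unadjusted p under 0.05 there were 4 of the other glucocorticoid-induced genes, 2 of the peptides and receptors, 0 of the steroid genes, 3 of the chaperones and cofactors and 1 of the immediate early genes, beside 22.2% of all probe sets.

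**Figure D3:**
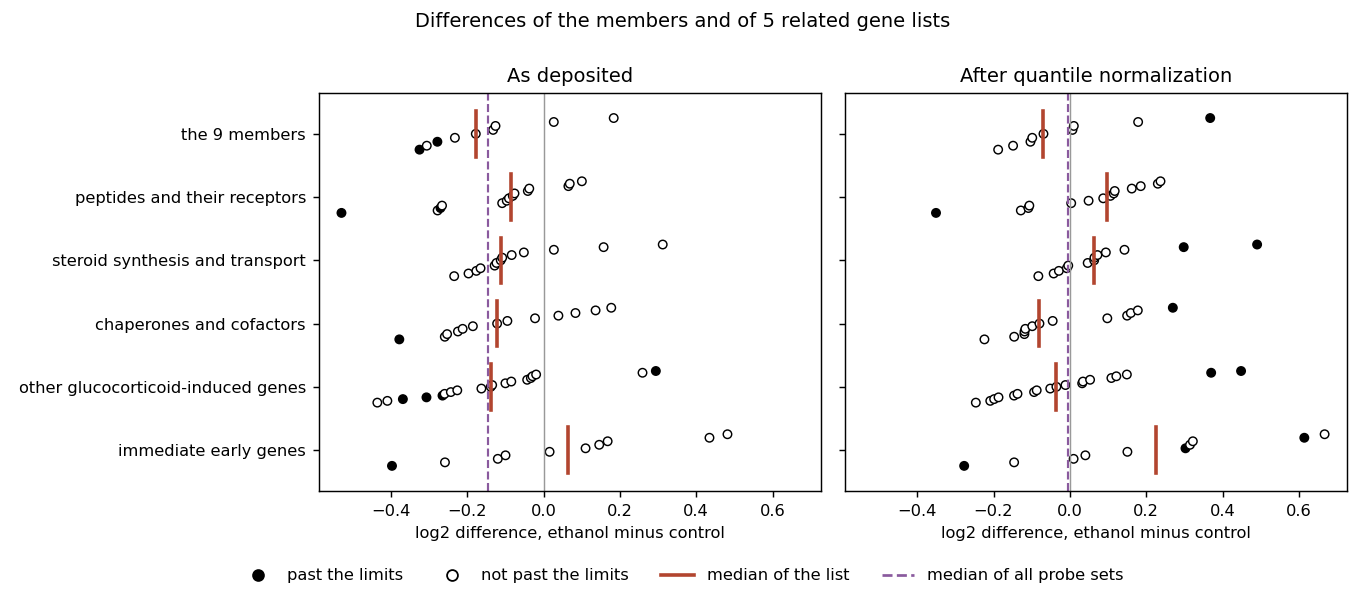
Log2 difference between the ethanol and the control group for the 9 genes and for the genes of 5 related lists, as deposited (left) and after quantile normalization (right). Each point is 1 gene, filled where it is past the study's limits, and the thick bars are the medians of the lists. As deposited the medians run from -0.18 for the 9 genes to 0.06 for the immediate early genes, and the dashed line is the median of all probe sets, -0.15.

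RNA of the whole brain mixes regions and cell types, and fewer cells of a type and less RNA per cell cannot be told apart in it. Of 13 marker lists, 5 held a gene past the limits as deposited, where 17.9% of all probe sets were lower and 2.23% higher. Of 5 hippocampus markers 3 were lower, Fibcd1 at -0.44, Prox1 at -0.29 and Wfs1 at -0.27, and none was after quantile normalization. The mean log2 signal of these 5 was 7.29 on ethanol 2 and 7.35 on ethanol 4, against 7.57 on control 1 and 7.51 on control 3. Both ethanol arrays were below both control arrays in the means of all marker lists but the astrocyte, microglia, pituitary and cerebellum lists. After quantile normalization this order was seen in the means of the oligodendrocyte, hippocampus and interneuron lists. Single probe sets had this order in 52.7% of cases as deposited and 24.9% after quantile normalization. A list mean averages over genes, so these shares are not a like measure. Sgk1 is also expressed in oligodendrocytes, whose 5 measured markers averaged 11.21 on ethanol 2 and 11.23 on ethanol 4, against 11.47 on control 1 and 11.37 on control 3, with 1 lower, Cnp at -0.29. After quantile normalization Cnp was still past the limits at -0.29 and all 5 markers were below 0. In 4 of the 5 both ethanol arrays were below both control arrays. Of all probe sets, 51% were then below 0 and 24.9% had both ethanol arrays below both control arrays. By the limits, 5.87% of all probe sets were then lower and 5.71% higher. Choroid plexus markers, a tissue that expresses Crhr2, had 1 of 5 lower (Kl, at -0.42), vascular and meningeal markers 1 of 7 lower (Pecam1, at -0.37), and cerebellum markers 1 of 6 higher (Gabra6, at 0.51). After quantile normalization Gabra6, at 0.58, was still past the limits, and Kl, at -0.26, and Pecam1, at -0.16, were not. None was past the limits among the neuron, astrocyte, microglia, pituitary, blood, hypothalamus, striatum and interneuron markers. Neuron markers averaged 12.33 on ethanol 2 and 12.34 on ethanol 4, against 12.43 on control 1 and 12.35 on control 3, so that markers of brain tissue were present on every array. The part of these tissues in the differences of the members was not tested.

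Under the grouping by the treatment entry of the labels, no member was past the limits in either direction. The differences of Tsc22d3 and Sgk1 were then 0.01 and 0.02 on the log2 scale. With ethanol 2, the array low in pituitary transcripts, left out, Tsc22d3 was at -0.35, Sgk1 at -0.30 and Crhr2 at 0.25. The limma p-values set each difference against a spread between pools that is partly the gene's own and partly shared over all probe sets. The main fit did not model the litters shared between groups, and precision is limited by there being 4 arrays.

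**Figure D4:**
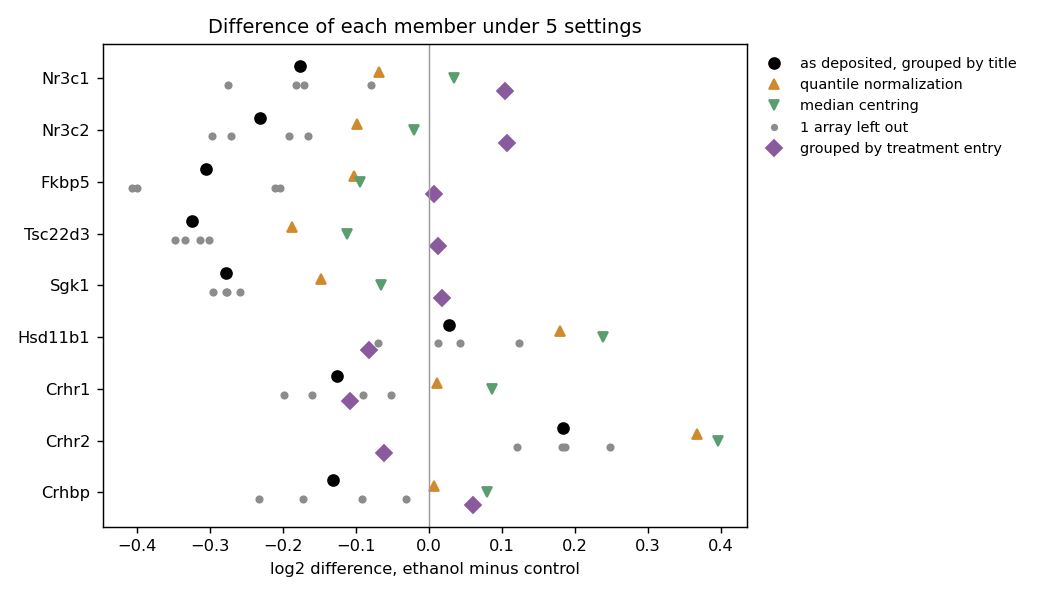
Log2 difference between the ethanol and the control group for each of the 9 genes under 5 settings, with 4 grey points per gene for the 4 arrays left out in turn. Quantile normalization and median centring move every gene to the right of its deposited value. Under the grouping by the treatment entry the points lie between -0.11 and 0.11.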

How the data were processed

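The authors hybridized pooled whole-brain RNA to Affymetrix Mouse Gene 1.0 ST arrays, summarized probes with a GC-adjusted RMA algorithm and quantile normalization in Partek Genomics Suite, and deposited log2 values. The submitters' processing notes name Partek 6.6, and the methods name another version. The medians of the 4 deposited arrays nevertheless differed, so the values were used as deposited and after a second quantile normalization.

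Groups follow each array's title and source name. All 35556 probe sets were fitted with limma 3.58.1 in R 4.3.3 (lmFit and eBayes, 2 residual and 2.57 prior degrees of freedom), without a filter on dim probe sets, with Benjamini-Hochberg adjustment of p over all of them. The procedure was tested on simulated data. The limits were 1.2-fold and an unadjusted p of 0.05. Symbols came from GEO's annotation of the platform, and the 145 listed genes with a probe set of their own were matched by Entrez ID. A further 13 listed genes, Cdkn1a and Hsp90ab1 among them, had none and were not analysed here. Levels of single genes were not ranked against each other, and sensory receptor probe sets served as a scale for dim signals.

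The 9 members, the 5 pathway lists and the 13 marker lists were chosen with earlier results of these data known. Named genes are the members, the 3 genes of each pathway list with the smallest p, the 3 nearest profiles of a member, and markers that a result turns on. Crh, Hsd11b2 and Egr2 were named after their values were seen, as were Klf9, Ep300 and Pdk4, which were past the limits as deposited or after quantile normalization. Results were recomputed after grouping by the treatment entry, with quantile normalization, median centring, probe sets of mean log2 5 or more, an intensity trend, the test of the study's methods, ethanol 2 against control 3 alone, each array left out, both possible replicate blocks, a 1.5-fold limit and an adjusted p of 0.05. Quantile normalization without ethanol 2 was added after the data were seen.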

Additional observations from a re-analysis of the deposited data

How the results depend on the processing

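Of the 9 genes, 2 were lower past the limits and 0 were higher. A fit with 1 array left out has 1 array in a group, so its counts also reflect the fewer arrays. The count lower was 0 with the grouping by the treatment entry, quantile normalization, median centring, a 1.5-fold limit, an adjusted p of 0.05 and quantile normalization without ethanol 2, and 0 to 1 with each array left out. The count higher was 1 (Crhr2) with quantile normalization, median centring and quantile normalization without ethanol 2. Their median difference of -0.18 became 0.0128 by the treatment entry, 0.0342 with median centring, -0.0691 with quantile normalization, -0.13 for ethanol 2 against control 3 alone, and -0.10 with quantile normalization without ethanol 2, and ran between -0.23 and -0.17 with each array left out.

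The sign turned for Nr3c1 (0.10), Nr3c2 (0.11), Fkbp5 (0.00706), Tsc22d3 (0.0128), Sgk1 (0.0180), Hsd11b1 (-0.0818), Crhr2 (-0.0616) and Crhbp (0.0602) by the treatment entry, and for Nr3c1 (0.0342), Crhr1 (0.0859) and Crhbp (0.0796) with median centring. It also turned for Crhr1 (0.0104) and Crhbp (0.00684) with quantile normalization, for Crhr1 (0.0798) with quantile normalization without ethanol 2, and for Hsd11b1 for ethanol 2 against control 3 alone (-0.0549). With each array left out Hsd11b1 ran between -0.0697, without ethanol 4, and 0.124. Over the alternatives the limma adjusted p ran from 0.172 to 1 for Tsc22d3, 0.180 to 1 for Sgk1 and 0.237 to 1 for Crhr2.

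The 5 pathway lists together had 7 genes lower. This count was 0 by the treatment entry, 2 with quantile normalization, 1 with median centring, 4 with the methods' test, 0 with a 1.5-fold limit, 0 with an adjusted p, 1 with quantile normalization without ethanol 2, and 2 to 6 with each array left out. They had 1 gene higher, and this count was 0 by the treatment entry, 7 with quantile normalization, 9 with median centring, 0 with the methods' test, 0 with a 1.5-fold limit, 0 with an adjusted p, 3 with quantile normalization without ethanol 2, and 0 to 2 with each array left out.

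Of all probe sets, 6369 were lower and 794 higher past the limits, against 244 and 326 by the treatment entry, 2086 and 2030 with quantile normalization, 1392 and 3231 with median centring, 2882 and 272 with the methods' test, 1289 and 405 with a 1.5-fold limit, 0 and 1 with an adjusted p, and 1841 and 1811 with quantile normalization without ethanol 2. The count lower was 3499 without ethanol 2 and 3485 without control 1, and 6458 at most, and the count higher ran from 713 to 969 with each array left out.

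The labels place littermates in both groups without saying which pools match. Deviations from the group means correlated with r of 0.0716 for one pairing and -0.0716 for the other. With 2 arrays per group these values are opposite by arithmetic, so the second adds nothing to the first. With control 1 paired to ethanol 2 as a replicate block, the count lower among the 9 genes was 1, since Sgk1 had an unadjusted p of 0.0511 in the limma fit, and the pathway lists had 0 genes higher. With control 1 paired to ethanol 4 as the replicate block, Fkbp5 at -0.31 was past the limits as well, and the pathway lists had 3 genes higher. The cause of these changes was not tested. Crhr2 and Fkbp5 were near the signal of silent genes, which limits what the arrays can show of them.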
